A study of Mus musculus with 17 samples.

Results

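Fgf9 is a fibroblast growth factor (FGF), and its messenger RNA was followed here in mouse forestomach together with 5 other FGF ligands (Fgf1, Fgf2, Fgf7, Fgf10 and Fgf18) and 3 FGF receptors (Fgfr1, Fgfr2 and Fgfr3). Members were the probes whose RefSeq transcript belongs to 1 of these 9 genes, which gave 15 probes. Of the 9 genes, 7 had a probe well above background on at least 4 arrays and were among the 21380 genes tested in the whole series. Fgf2 and Fgf10 did not reach that level. Fgf9 was chosen for its dose pattern on these same arrays, and the other 8 genes were set beside it with their values known. The differences of all 9 genes from control are therefore descriptions, given with no test.

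The arrays compared the forestomach of male MutaTMMouse animals, a transgenic mutation reporter strain, aged 24 to 26 weeks and dosed by gavage for 28 days. The 4 groups were control animals given olive oil only (5 arrays), and animals given benzo(a)pyrene (BaP) in olive oil at 25, 50 or 75 mg/kg per day (4 arrays each). All animals carried the reporter, and tissue was collected 72 h after the last dose. Each of the 17 arrays held 1 animal's RNA in Cy5 and a common reference RNA, pooled from 11 mouse cell lines, in Cy3, with no dye swap. The unit throughout is the log2 ratio of Cy5 over Cy3, so a value states a gene's signal against the reference RNA and is not compared between probes. The arrays lay on 3 slides, and each slide held at least 1 array of every group. The protocol gives n = 5 per group, whereas 4 arrays were analysed at each dose.

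Per array, 39.9% to 50.7% of all probes passed Agilent's test for lying well above background. All 8 squamous epithelium markers listed (Krt5, Krt14, Krt13, Krt4, Trp63, Dsg3, Ivl and Lor) were well above background on all 17 arrays, so the labelled tissue was represented on each. In whole tissue, fewer cells of a type and less RNA per cell cannot be told apart.

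FGFs are secreted proteins that bind receptor tyrosine kinases together with heparan sulphate, and the activated receptor signals mainly through the adaptor Frs2 to the RAS and MAP kinase pathway. Spry1, Dusp6, Il17rd, Etv4 and Etv5 are widely used readouts of that signal, because the pathway induces its own inhibitors and the ETV factors. Ligand and receptor are often made in neighbouring tissue layers: Fgf7 and Fgf10 come from mesenchyme and act on the epithelial form of Fgfr2, whereas Fgf9 is made by epithelia and mesothelia and acts largely on mesenchymal forms of the receptors. BaP is a polycyclic aromatic hydrocarbon that binds the aryl hydrocarbon receptor, whose DNA element has the core GCGTG.

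The upstream sequences of Fgf9, Fgf7 and Fgfr3 are shown because they set the gene that differed most beside members that did not. Each is the 250 bases before the annotated start, from RefSeq on build GRCm38.p6, 5′ to 3′ on the gene's strand (the plus strand each time), with GCGTG or its reverse complement CACGC in capitals. The windows are chr14:58072436-58072685 for Fgf9, chr2:126034408-126034657 for Fgf7 and chr5:33721474-33721723 for the first start of Fgfr3.
Fgf9: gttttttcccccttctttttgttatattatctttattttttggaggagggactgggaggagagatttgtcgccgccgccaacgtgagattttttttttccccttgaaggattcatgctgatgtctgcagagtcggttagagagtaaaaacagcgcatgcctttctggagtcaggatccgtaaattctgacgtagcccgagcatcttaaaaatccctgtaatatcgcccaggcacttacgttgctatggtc
Fgf7: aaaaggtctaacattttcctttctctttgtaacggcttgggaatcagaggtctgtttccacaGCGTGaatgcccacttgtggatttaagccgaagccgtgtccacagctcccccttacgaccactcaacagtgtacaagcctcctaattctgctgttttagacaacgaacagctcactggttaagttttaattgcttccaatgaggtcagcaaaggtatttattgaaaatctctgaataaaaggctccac
Fgfr3: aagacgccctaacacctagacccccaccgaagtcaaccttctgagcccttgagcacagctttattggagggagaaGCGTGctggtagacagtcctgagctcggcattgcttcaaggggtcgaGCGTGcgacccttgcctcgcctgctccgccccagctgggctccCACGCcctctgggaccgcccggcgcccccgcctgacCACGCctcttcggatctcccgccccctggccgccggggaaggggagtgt
The Fgf9 window held 0 matches to GCGTG, the Fgf7 window held 1 and the Fgfr3 window held 4, counting both strands. Of all 32851 promoter windows of the same length, 28.2% held at least 1. The Fgf9 window also had 0 matches to an AP-1 motif (TGANTCA, in 6.75% of windows), a GC box (GGGCGG, in 32.7%) and a TATA box (TATAAA, in 12.4%). None of these 4 motifs contains another. Its GC content was 44.8% with 11 CpG dinucleotides, against 66.8% and 19 in the Fgfr3 window. Windows were counted for 7 of the 9 members, and those of Fgf1 and Fgfr1 are not reported here. The windows of Fgf10, Fgf18, Fgfr2 and the second start of Fgfr3 held 0 matches to GCGTG, and that of Fgf2 held 1. These counts describe letters in a short window and say nothing about where a factor binds.

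Fgf9 had a high ratio to the reference RNA at all 3 doses and a low one in control animals. It was read by 1 probe with 1 spot per array (A_55_P2015994, transcript NM_013518), well above background on all 17 arrays. The log2 ratios of the control arrays were 0.78, 0.48, 0.57, 0.32 and 0.82. At 25 mg/kg the ratios were 2.23, 1.71, 1.89 and 2.09.
Arrays at 50 mg/kg had 2.07, 1.77, 1.83 and 2.49. Those at 75 mg/kg had 2.25, 1.92, 2.14 and 2.65. Every BaP array therefore lay above every control array, with no overlap at any dose, while the 3 dose groups overlapped each other throughout.

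The Fgf9 log2 ratio averaged 0.59 ± 0.21 in control animals, 1.98 ± 0.22 at 25 mg/kg, 2.04 ± 0.33 at 50 mg/kg and 2.24 ± 0.31 at 75 mg/kg (SD, n = 5 control and 4 per dose). The differences from control were 1.39, 1.45 and 1.64 at the low, middle and high dose, each ± 0.17 (SE of the limma fit over 17 arrays). On a linear scale these were 2.61-fold, 2.73-fold and 3.13-fold. The 3 comparisons share the same 5 control arrays. Ordered by mean, the levels ran control, 25, 50 and 75 mg/kg, and the neighbouring dose groups did not differ beyond their spread. The 75 mg/kg mean exceeded the 25 mg/kg mean by 0.26 ± 0.18, against a step of 1.39 between 25 mg/kg and control. Most of the Fgf9 difference was thus already present at the lowest dose given.

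**Figure D1:**
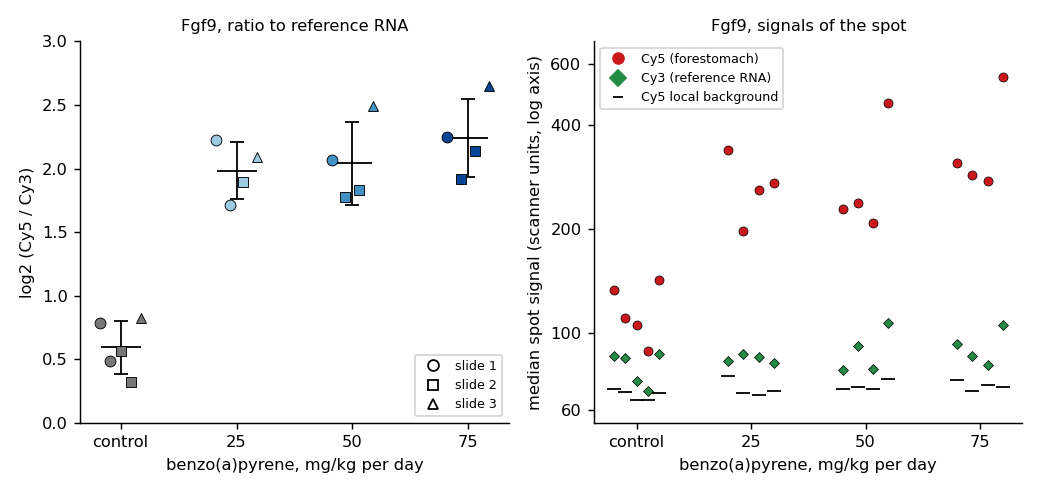
Left, log2 ratio of Cy5 over Cy3 for the Fgf9 probe on each array, by dose in mg/kg per day, with the group mean (wide bar) and SD (whiskers); the symbol gives the slide. Right, the median signals of the same spot in scanner units on a log axis: the 12 BaP arrays lie between 197 and 550.5 in Cy5, above the 5 control arrays at 89 to 143, while Cy3 lies between 68 and 107 everywhere.

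The forestomach channel carried the difference. The Cy5 signal of the Fgf9 spot ranged from 197 to 340 at 25 mg/kg, from 209 to 464 at 50 mg/kg and from 276 to 550.5 at 75 mg/kg, against 89 to 143 in control animals, over a local background of 64 to 75. The Cy3 signal of the reference RNA lay between 68 and 107 on all 17 arrays. After normalization the Cy3 log2 signal averaged 6.30, 6.35 and 6.37 at the 3 doses and 6.43 in control animals, a spread far below that of Cy5. With Cy5 alone, the differences from control were 1.26, 1.37 and 1.59.

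The control signal of Fgf9 was close to its background. With no background correction the log2 differences were 1.41, 1.46 and 1.65 at 25, 50 and 75 mg/kg. With Agilent's own processed signals, from which background is subtracted, they were 1.97, 1.99 and 2.09. With arrays centred on their median and no loess, they were 1.17, 1.17 and 1.41. Fgf9 lay above control under every alternative listed, at every dose.

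The 3 slides gave the same picture for Fgf9. Within slides 1, 2 and 3, the 25 mg/kg arrays exceeded the control arrays of that slide by 1.34, 1.45 and 1.27. The 50 mg/kg arrays exceeded them by 1.43, 1.36 and 1.67, and the 75 mg/kg arrays by 1.61, 1.59 and 1.83. The array on slide 3 was the highest of its group in control, 50 mg/kg and 75 mg/kg animals. Within slides, 75 mg/kg exceeded 25 mg/kg by 0.28, 0.14 and 0.56.

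Markers of glandular stomach, the tissue that borders the forestomach, also varied between arrays. Of 7 such markers (Gkn1, Gkn2, Tff1, Atp4a, Atp4b, Pgc and Muc5ac), 6 were tested and Atp4a was not, and none passed limma's adjusted threshold at any dose. Their median log2 difference from control was 1.83 at 25 mg/kg, 0.38 at 50 mg/kg and 1.14 at 75 mg/kg. The mean log2 ratio of the 6 per array ranged from 0.70 to 5.62 at 25 mg/kg, from 1.15 to 2.14 at 50 mg/kg and from 0.64 to 3.57 at 75 mg/kg, against 0.23 to 2.06 in control animals. The highest control value, 2.06, came from 1 array, and the other control arrays lay at 0.39, 0.78, 0.23 and 0.91. Of the BaP arrays, only those at 0.70 and 0.64 lay below 0.91. On 7 of the 12 BaP arrays the glandular mean was no higher than 2.06, and Fgf9 on those 7 arrays was 1.77 to 2.23. On the remaining BaP arrays Fgf9 was 1.71 to 2.65. The 25 mg/kg array with the highest glandular mean, 5.62, had the lowest Fgf9 ratio of its group, 1.71. In control, 50 and 75 mg/kg animals, the array with the highest glandular mean (2.06, 2.14 and 3.57) had the highest Fgf9 ratio of its group. Those Fgf9 ratios were 0.82, 2.49 and 2.65, all on slide 3. The part of glandular tissue in the Fgf9 result was not tested.

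Markers of the other tissue layers were looked at in the same way. The 6 smooth muscle markers had a median log2 difference from control of -0.04, -0.25 and -0.44 at 25, 50 and 75 mg/kg, and the 7 nerve and glia markers tested had 0.06, -0.22 and -0.27. The 8 squamous markers had 0.11, -0.04 and -0.06, and the 5 mesothelial markers -0.04, 0.08 and -0.13. None of these markers was called at any dose, and their part in the Fgf9 result was not tested.

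Fgf1, a ligand that binds all FGF receptors, showed another dose shape. On its bright probe (A_55_P2047188, NM_010197) the control arrays had log2 ratios of 2.66, 3.105, 2.81, 2.79 and 2.90. The 25 mg/kg arrays had 3.41, 3.42, 3.18 and 3.58. Every 25 mg/kg array lay above every control array.
At 50 mg/kg Fgf1 had 2.72, 2.79, 2.46 and 3.104. At 75 mg/kg it had 2.29, 2.58, 2.78 and 3.24. Both of these groups overlapped the control arrays, and the 75 mg/kg group overlapped the 25 mg/kg group by 1 array.

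The Fgf1 mean was 3.40 ± 0.17 at 25 mg/kg and 2.85 ± 0.16 in control animals (SD, n = 4 and 5), a difference of 0.54 ± 0.16 (SE), or 1.46-fold. At 50 and 75 mg/kg the differences from control were -0.09 and -0.13, each ± 0.16, and 75 mg/kg differed from 25 mg/kg by -0.68 ± 0.17. Within the 3 slides, 25 mg/kg exceeded control by 0.53, 0.38 and 0.68, while 75 mg/kg differed from control by -0.59, -0.12 and 0.33. Slide 1 and slide 3 thus had opposite signs at the high dose. The second Fgf1 probe (A_52_P538673) did not clear background on any of the 17 arrays, so Fgf1 rests on 1 probe.

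The 4 adipocyte markers (Adipoq, Plin1, Fabp4 and Cidec) averaged above control at 25 mg/kg, as Fgf1 did. Their median log2 difference from control was 0.44, -0.98 and -0.83 at 25, 50 and 75 mg/kg, and none was called. Fgf1 differed by 0.54, -0.09 and -0.13, so the lower marker medians at 50 and 75 mg/kg had no counterpart of that size. The markers' mean per array ranged from 1.95 to 5.49 at 25 mg/kg and from 1.61 to 4.23 in control animals. The 25 mg/kg arrays with adipocyte means of 5.49 and 1.95 had Fgf1 ratios of 3.41 and 3.42. In control animals the array with the lowest adipocyte mean, 1.61, had the highest Fgf1 ratio, 3.105. At 50 mg/kg the array with the highest adipocyte mean, 3.39, had the highest Fgf1 ratio, 3.104. At 75 mg/kg adipocyte means of 3.30 and 3.03 went with Fgf1 ratios of 2.78 and 3.24. The means of 1.58 and 1.53 at that dose went with 2.29 and 2.58. The part of fat tissue in the Fgf1 values was not tested.

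Fgf7, also called keratinocyte growth factor, overlapped its control arrays at every dose. Its ratios were -1.84, -2.09, -1.95 and -1.25 at 25 mg/kg, against -1.79, -2.22, -1.71, -1.56 and -1.58 in control animals. At 50 mg/kg 2 arrays lay at -2.00 and -2.08 and the other 2 at -0.85 and -1.30, the widest group for this gene. At 75 mg/kg the ratios were -1.77, -2.18, -1.71 and -1.80. The differences from control were -0.01, 0.21 and -0.09 at the 3 doses, each ± 0.23.

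Fgf18, a ligand of the same subfamily as Fgf8 and Fgf17, had 2 probes above background, and neither separated a dose from control. The brighter (A_55_P2211319) had -0.07, -0.46, 0.10 and -0.70 at 25 mg/kg, against -0.20, -0.15, -0.10, -0.19 and -0.69 in control animals. At 50 mg/kg its 4 arrays lay close together, at -0.28, -0.27, -0.19 and -0.38, and at 75 mg/kg they spread over -0.09, -0.64, 0.10 and -0.37. The differences from control were -0.02, -0.01 and 0.02, each ± 0.17, so the spread of Fgf18 varied more between groups than its mean. The other probe (A_55_P1976356) gave -0.06, 0.03 and -0.02.

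Fgf2, or basic FGF, and Fgf10, a mesenchymal ligand of epithelial Fgfr2, could not be followed. Fgf2 was printed in 10 spots per array and was not well above background on any of the 17 arrays, with a Cy5 signal of 68.9 to 87.8 over a background of 64.2 to 74.4. Fgf10, also in 10 spots, was well above background on 2 arrays, 1 at 50 and 1 at 75 mg/kg. The reference RNA gave an Fgf10 Cy3 signal of 227 to 316. Fgf2 was thus not detectable in forestomach at this signal, which does not show that it was absent, and Fgf10 was detected on too few arrays to compare groups.

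**Figure D2:**
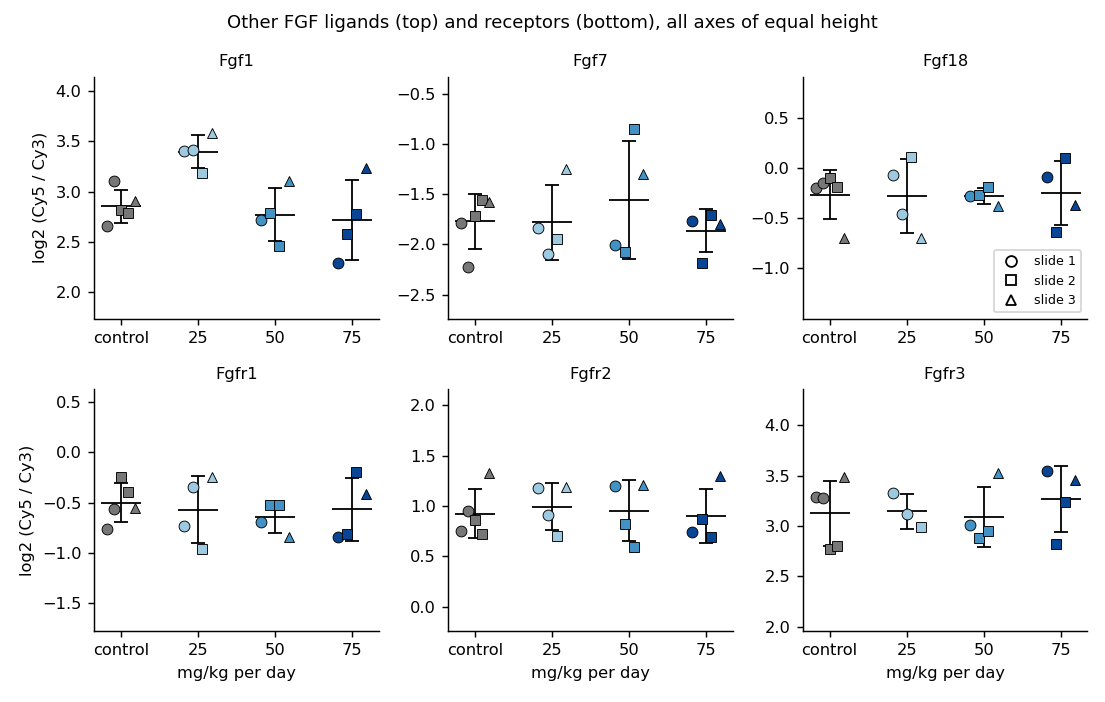
Log2 ratio of Cy5 over Cy3 per array for the other 6 members above background, by dose in mg/kg per day, with group mean (wide bar) and SD (whiskers); symbols give the slide. Only Fgf1 at 25 mg/kg lies wholly apart from its control arrays.

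The 3 receptors overlapped their control arrays at each dose. Fgfr1 (brightest probe A_55_P2057777) had -0.73, -0.34, -0.96 and -0.24 at 25 mg/kg, against -0.76, -0.56, -0.24, -0.39 and -0.55 in control animals. At 50 mg/kg it had -0.69, -0.52, -0.52 and -0.84, and at 75 mg/kg -0.84, -0.81, -0.19 and -0.42. The differences from control were -0.07, -0.14 and -0.06, each ± 0.16.
Its second probe (A_55_P1967022) gave -0.03, -0.07 and -0.09, each ± 0.14, and another (A_55_P1967015) gave -0.08, 0.12 and 0.14, each ± 0.18. The probes had opposite signs at 50 and 75 mg/kg, but each difference was smaller than its SE, so the sign was not determined.

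Fgfr2, whose epithelial form receives Fgf7 and Fgf10, had ratios of 1.18, 0.91, 0.70 and 1.19 at 25 mg/kg, against 0.76, 0.95, 0.86, 0.72 and 1.33 in control animals (A_55_P2094881). At 50 mg/kg it had 1.20, 0.82, 0.59 and 1.21, and at 75 mg/kg 0.74, 0.88, 0.69 and 1.29. The slide 3 array was the highest of each of the 4 groups. The differences from control were 0.07, 0.03 and -0.02 at the 3 doses, each ± 0.17. A second Fgfr2 probe, printed in 10 spots (A_51_P432403), gave 0.08, -0.05 and 0.03, each ± 0.13. These probes do not tell the epithelial form of Fgfr2 from the mesenchymal form as far as the files name them.

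Fgfr3 is a receptor that Fgf9 activates. Its bright probe (A_55_P1996578) had 3.55, 2.82, 3.24 and 3.46 at 75 mg/kg, against 3.29, 3.28, 2.77, 2.80 and 3.49 in control animals, which overlap. At 25 mg/kg it had 3.33, 3.12 and 2.99, and at 50 mg/kg 3.00, 2.88, 2.95 and 3.53. The differences from control were 0.02, -0.04 and 0.14. The value at 25 mg/kg rests on 3 arrays, because the spot on the array of replicate 9 was saturated, flagged as an outlier and left out.
The dimmer Fgfr3 probe (A_65_P06147) gave 0.07, 0.10 and 0.23, each ± 0.13. Over the 3 receptors and 3 doses, the 95% intervals of the fit reached from 0.714-fold to 1.45-fold of control.

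**Figure D3:**
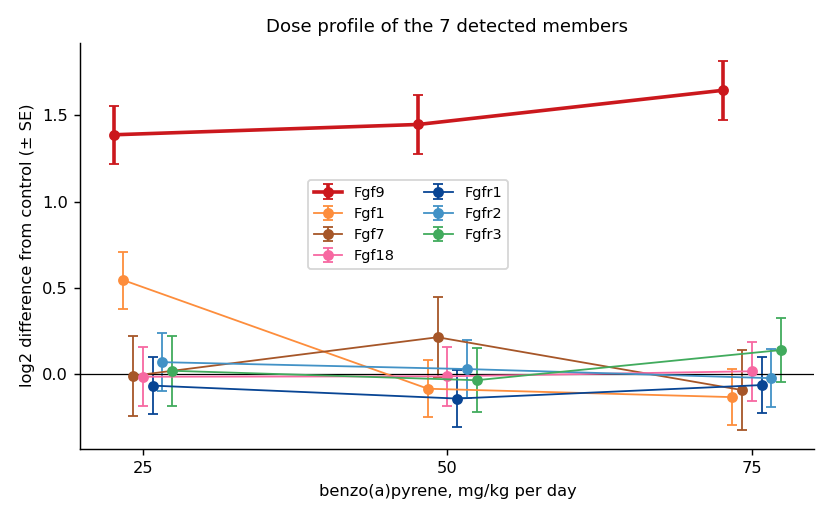
Difference in log2 ratio from control at 25, 50 and 75 mg/kg per day for the 7 members above background, with SE of the fit; points are set slightly apart along the dose axis. Fgf9 stands at 1.39, 1.45 and 1.64, Fgf1 at 0.54, -0.09 and -0.13, and the other 5 between -0.14 and 0.21.

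Of the 7 members tested, 1 passed limma's adjusted threshold of 0.05 at each dose, namely Fgf9, where 0.014%, 0.0468% and 1.1% of all 21380 genes did so at 25, 50 and 75 mg/kg. With arrays only centred on their median, Fgf9 passed at 75 mg/kg and not at 25 or 50 mg/kg. Without the 25 mg/kg array of replicate 6 or of replicate 9, it did not pass at 25 mg/kg, where its differences were then 1.30 and 1.35. Groups did not overlap for 2 members at 25 mg/kg (Fgf9 and Fgf1), 1 at 50 mg/kg and 1 at 75 mg/kg, where 0.987%, 2.21% and 3.3% of all genes were so separated. Since Fgf9 was picked from these comparisons, nothing is read from those counts. The median difference of the 7 was 0.02, -0.01 and -0.02, beside 0.01, -0.01 and -0.01 over all genes.

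The pattern of Fgf9 over the 17 arrays was most like that of 5 other genes, out of 13828 genes with 1 symbol and a value on every array. Pearson's r with Fgf9 was 0.92 for Serpinb3c, a serpin, 0.90 for Dcxr, a carbonyl reductase, 0.89 for the chemokine Ccl8, 0.89 for the beta-defensin Defb14 and 0.88 for the semaphorin receptor Plxna2. Serpinb3c exceeded control by 1.12, 1.61 and 2.12 at 25, 50 and 75 mg/kg, and Dcxr by 0.67, 0.75 and 0.69, nearly the same at each dose. Once group means were removed, r was 0.80 for Serpinb3c, 0.78 for Dcxr, 0.69 for Defb14, 0.46 for Plxna2 and 0.13 for Ccl8. Ccl8 thus shared the step between control and BaP animals, and little of the variation among animals of 1 group. The lowest r was that of Rgs7 (-0.86), followed by H2bc1 (-0.82), Slc27a1 (-0.80), 3110070M22Rik (-0.80) and Ncaph2 (-0.79). These genes were ranked on the same arrays, which share slides and reference RNA, so r is a description.

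The other members were less like Fgf9 over the arrays than the 5 genes above. Pearson's r with Fgf9 was 0.17 for Fgf1, 0.11 for Fgf7, -0.04 for Fgf18, -0.22 for Fgfr1 and 0.26 for Fgfr2 over 17 arrays. For Fgfr3 it was 0.34 over 16 arrays, with a Spearman rho of 0.53, the highest of the 6 members by either measure.

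Other genes of FGF signalling were taken from a list of 71 genes, all on the array, of which 51 were above background. None of the 51 passed limma's adjusted threshold at any dose, in either direction, against 0.014%, 0.0468% and 1.1% of all genes. Their median log2 difference from control was -0.01, 0.01 and 0.02 at 25, 50 and 75 mg/kg, and single genes ranged from -0.21 to 0.56, from -0.35 to 0.49 and from -0.56 to 0.58. Unadjusted p-values under 0.05 were found for 697, 1456 and 2153 of all genes.

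Of 12 further secreted ligands, 3 were above background. Fgf8 differed from control by 0.07, -0.07 and 0.01, Fgf22 by 0.16, 0.11 and 0.03, and Fgf23 by -0.17, -0.18 and -0.17. Fgf16 and Fgf20, which form 1 subfamily with Fgf9, were not above background. Among the ligands above background, Fgf9 alone lay apart from control at all 3 doses. It was chosen for that dose pattern on these same arrays, so nothing is read from this. Of all genes, 0.987%, 2.21% and 3.3% were separated from control at 25, 50 and 75 mg/kg.

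Among receptors and co-receptors, Fgfr4 differed from control by -0.08, -0.10 and -0.28, each ± 0.16, and Fgfrl1, a receptor without a kinase domain, by -0.19, -0.35 and -0.33, each ± 0.17. Fgfrl1 averaged -0.88, -1.04 and -1.02 at the 3 doses, against -0.69 in control animals, with overlapping arrays. Fgfbp1, a carrier that releases FGFs from the matrix, differed by 0.56, 0.49 and 0.49, each ± 0.41. Its control arrays alone spanned 2.32 to 4.43, which covers the group means of all 3 doses.

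None of the 7 feedback inhibitors and 3 ETV factors tested passed the threshold at any dose. Of all genes, 0.014%, 0.0468% and 1.1% passed at 25, 50 and 75 mg/kg, so few or none of so small a group would be called. Spry1, a feedback inhibitor, averaged -0.52, -0.59 and -0.51 at 25, 50 and 75 mg/kg, against -0.52 in control animals. Its differences were -0.00, -0.07 and 0.01, each ± 0.13 (limma adjusted p = 0.999, 0.944 and 0.987), with 95% intervals that reached from 0.789-fold to 1.21-fold. Dusp6, the phosphatase of ERK, differed by 0.00, 0.15 and 0.16, each ± 0.12 (adjusted p = 0.999, 0.852 and 0.707).
Etv4 differed by 0.19, 0.16 and 0.21, each ± 0.14, and Etv5 by -0.03, 0.03 and 0.03, each ± 0.11. Il17rd, a receptor antagonist, differed by -0.06, -0.01 and 0.02, and the adaptor Frs2 by 0.05, -0.07 and -0.01. Spry2 and Spry4 were not above background. Etv1 and Dusp4, picked out after their values were seen, had the largest differences at 75 mg/kg among the ETV factors and feedback inhibitors tested, and both were negative. Etv1 differed by -0.08, -0.28 and -0.56, each ± 0.17, and at 75 mg/kg its limma adjusted p was 0.168 with an unadjusted 95% interval of 0.533-fold to 0.866-fold. Dusp4, another MAP kinase phosphatase, differed by -0.09, -0.13 and -0.38, each ± 0.23, with an adjusted p of 0.628 at 75 mg/kg. The tests do not show that the genes of this group were unchanged: the intervals of Etv4 reached up to 1.41-fold.

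Gab1, a docking protein downstream of Frs2, came nearest to the threshold, and was picked out after its values were seen. It averaged 0.73, 0.59 and 0.78 at 25, 50 and 75 mg/kg, against 0.35 in control animals. At 75 mg/kg the difference was 0.44 ± 0.12 with a limma adjusted p of 0.0991. Without control replicate 5 it was 0.54 with an adjusted p of 0.0127, and with slide as a block 0.42 with 0.0334.

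**Figure D4:**
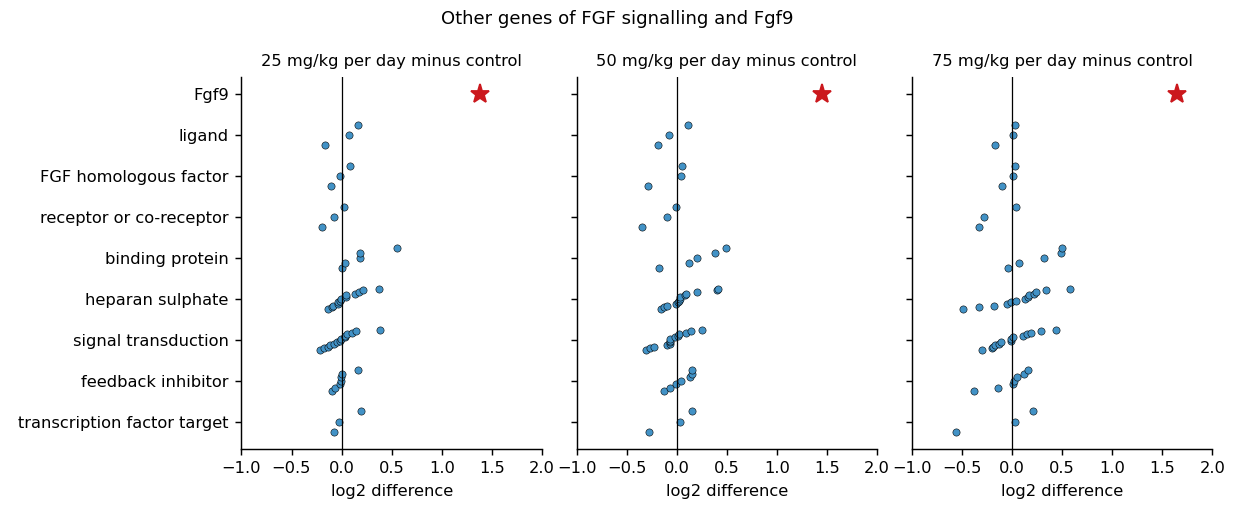
Difference in log2 ratio from control at each dose for the 51 other FGF signalling genes above background (circles, grouped by role, 1 circle per gene) and for Fgf9 (star). The circles lie between -0.56 and 0.58 at all 3 doses, and Fgf9 stands at 1.39, 1.45 and 1.64.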

How the data were processed

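For every array the authors deposited spot intensities that, by the file headers, Agilent's Feature Extraction 10.7.3.1 had measured from the scan: median signal and local background of 62976 spots, 3671 of them controls. Per the file headers, that software also wrote processed intensity values, with background subtracted and dyes balanced, used as an alternative. The deposited series table holds log2 values of unstated scale. Its columns matched the log2 Cy5 over Cy3 ratio after loess without background correction (r = 0.998 to 0.999, slope 0.995 to 0.998, medians -0.03 to -0.02) and served as an alternative. From the intensities, background was corrected by normexp with an offset of 50 followed by within-array loess to which control spots gave no weight (0). Control spots and flagged outlier spots (201 to 331 per array) were left out, and repeated spots were averaged per probe. Probes well above background in the Cy5 channel of 4 or more arrays were kept (27570 of 55681), and the brightest kept probe stood for a gene in the fit of 21380 genes. Of these 21380, 13851 had 1 gene symbol. The rest were counted under the array's own systematic name, and shares of all genes include them. Gene symbols came from matching each probe's RefSeq accession to a GRCm38.p6 gene table (26413 with 1 symbol, 0 with several and 29268 with none). The array design names an older build, so coordinates are given only for RefSeq promoter windows.

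Group means were fitted with limma 3.58.1 in R 4.3.3 over all 17 arrays (two-sided, Benjamini-Hochberg over all genes, threshold 0.05). On simulated data for the 75 mg/kg comparison over 21380 genes, 85% of genes changed by log2 1 and 95% of those changed by log2 2 were recovered. The simulated noise was independent between genes and arrays, with no slide effect. Smaller changes and the other doses were not simulated, so these rates do not apply to them. The members, the signalling list and the marker lists were chosen with earlier results of these data known. Named were all members with every probe, any signalling gene called plus Fgfr4, Fgfrl1, Fgfbp1, Spry1, Spry2, Spry4, Dusp6, Etv4, Etv5, Il17rd and Frs2, the 5 genes most like and the 5 least like Fgf9, and markers as lists. Fgf8, Fgf22, Fgf23, Fgf16, Fgf20, Gab1, Etv1 and Dusp4 were named after their values were seen. Marker lists for endothelium, fibroblasts, macrophages and pancreas had 4, 6, 3 and 2 genes tested, and none was called at any dose. The number of arrays limits the precision, and replicates are animals per the labels. Alternatives covered background, normalization, channel, the deposited table, the probe filter, probe averaging, slide and single arrays.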

Additional observations from a re-analysis of the deposited data

Results flagged for a closer look

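The Fgf18 log2 ratio of control replicate 5, -0.69, stood apart from the other 4 control arrays, which lay between -0.20 and -0.10. Its gap to the nearest of them was 0.823 of the group's range. A total of 27 member groups were looked at in this way, and chance flags about 1 in 20 such groups. Control replicate 5 was the only control array on slide 3. The slide 3 arrays at 25, 50 and 75 mg/kg had -0.70, -0.38 and -0.37. On the other Fgf18 probe, control replicate 5 had -0.96 and the slide 3 array at 25 mg/kg had -0.85. The Cy3 signal of the brighter probe was 460 to 522 on slide 3 and 273 to 457 on slides 1 and 2. The part of the slide in this value was not tested.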

How the results depend on the processing

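Fgf9 kept its sign under all alternatives. Leaving out 1 array at a time gave 1.30 to 1.48 at 25 mg/kg, 1.30 to 1.54 at 50 mg/kg and 1.51 to 1.75 at 75 mg/kg. Its call at 25 mg/kg was lost without replicate 6 or 9 of that dose. Fgf9 was chosen on these same arrays, so nothing is read from its calls. The Fgf9 difference moved by more than the spread between replicates with Agilent's processed signals (1.97, 1.99 and 2.09) and, at 50 mg/kg, with median centring (1.17). Median centring also shifted all genes by a median of 0.16, 0.08 and 0.19 (log2), and turned the sign of Fgfr1 at all 3 doses (0.21, 0.08 and 0.31). Genes called numbered 3 at 25 mg/kg, 10 at 50 mg/kg and 236 at 75 mg/kg (191 higher, 45 lower). At 25 mg/kg the count was 1 with processed signals, 0 with median centring, 1 with Cy5 alone, 1 with no probe filter, 1 with slide as a block and 0 to 2 without single arrays. At 50 mg/kg it was 1 with median centring, 3 with Cy5 alone, 6 with no filter, 6 with probes averaged, 28 with slide as a block and 2 to 32 without single arrays. At 75 mg/kg it was 145 with median centring (142 higher, 3 lower), 424 with slide as a block (330 and 94), 155 with the compared groups only (138 and 17) and 119 to 289 without single arrays. Signalling genes called at 75 mg/kg numbered 0, but 1 with processed signals (Dusp4, -1.64, against -0.38), 1 with slide as a block (Gab1) and 0 to 1 without single arrays (Gab1, without control replicate 5). The causes were not tested. Fgf1 at 25 mg/kg ranged from 0.38 to 0.62. Fgfr3 at 25 mg/kg was -0.55 ± 0.33 in the deposited table, which kept the saturated replicate 9 spot that the main fit left out. No paired analysis was possible because the groups share no replicate numbers, and slide served as the block instead. Low signal limits Fgf2, Fgf10 and the control level of Fgf9.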
